A study of Arabidopsis thaliana with 6 samples.

Results

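Flowering in *Arabidopsis thaliana* is held back by repressors that act on the florigen gene *FT* and on its target *SOC1*. In guard cells, 10 genes of this kind were examined: *FLC* (AT5G10140) with its clade *FLM* (AT1G77080), *MAF2* (AT5G65050), *MAF3* (AT5G65060), *MAF4* (AT5G65070) and *MAF5* (AT5G65080), the MADS-box gene *SVP* (AT2G22540), the TEMPRANILLO genes *TEM1* (AT1G25560) and *TEM2* (AT1G68840), and *SMZ* (AT3G54990). They were chosen by locus, and the array identifiers gave 23 probes for the 10 genes, of 43603 probes and 25410 matched genes in all. In the RefSeq table *FLM*, *MAF2* and *TEM2* carry the symbols MAF1, AGL31 and RAV2.

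FLC binds *FT* and *SOC1* together with SVP, and keeps them low until cold has silenced *FLC*. FLM and the MAF proteins are close relatives of FLC, and FLM works with SVP in the response to ambient temperature. The TEMPRANILLO proteins, which hold an AP2 and a B3 domain, compete with CONSTANS at *FT* and also repress gibberellin synthesis genes, whereas SMZ is an AP2-like repressor of *FT*. In leaves under long days, CONSTANS acts against the TEMPRANILLO proteins at *FT*, and in guard cells *FT* and *SOC1* are also known as positive factors of stomatal opening.

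RNA came from guard cell protoplasts (GCPs), which are guard cells freed of their walls by enzymes, of *gl1* plants in the Columbia background, which lack most leaf hairs. SS plants grew for 5 weeks under short days of 8 h light at 100 µmol m-2 s-1 and 16 h dark. SL plants grew for 3 weeks under the same short days and then for 2 weeks under long days of 16 h light at 41 µmol m-2 s-1 and 8 h dark. Each group held 3 samples, numbered 1 to 3. By the series' description, 3 experiments were run on separate plant batches, and a number shared by an SS and an SL sample was taken to mark 1 experiment, which the labels do not state. Replicate 1 was also hybridized on a slide of its own, so plants and slide cannot be told apart there. The question was whether the photoperiod changed gene expression in guard cells. The number of light hours and the light intensity changed together, so their effects cannot be told apart, and by the sample labels the time of isolation differed as well (ZT8 for SS and ZT16 for SL), although the study's text gives ZT16 for both. The Columbia background carries an inactive allele of *FRI*, the main activator of *FLC*, which limits what these plants can show about *FLC*.

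Each array had 28468 to 30826 probes well above background (65.3% to 70.7%) and 0 saturated spots. All of the 10 guard cell marker genes were well above background on every array, and their summed normalized signal was 85133 to 141759 in SS and 87068 to 113141 in SL. Most of this sum came from *TGG1*, at 57069 to 91763 in SS and 55061 to 73921 in SL. Of the 10 markers, 3 had a positive and 7 a negative log2 fold change, and 0 were called in either fit. The 5 mesophyll-rich markers had sums of 59070 to 128370 in SS and 29503 to 60395 in SL, and 4 of the 5 fell in the limma fit with the replicate number as a block, described below. The fifth, *CA1*, ran the other way, at 1.24, 1.24 and 1.34 of SS in the 3 pairs. Its log2 fold change was 0.35, with an adjusted p of 0.0724 in the same limma fit, so it did not pass. The 4 phloem markers had sums of 3655 to 6735 in SS and 1886 to 3751 in SL, and 1 of them, *SWEET11*, fell in the same fit. The others did not pass, with log2 fold changes of 0.09 for *SUC2*, -0.30 for *APL* and -0.42 for *SWEET12*. The defining mesophyll and phloem markers were thus all above background, and their part in the values below was not tested. In such bulk samples, fewer cells of a type and less RNA per cell cannot be told apart.

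All 23 probes of the floral repressor genes were well above background on all 6 arrays, which makes 138 of 138 spots. Signal was thus measured for every one of the 10 genes in GCPs of both groups, and no fold change below is a bound. Where genes are alike, a probe's signal may include a relative, as stated for those genes below. The dimmest, the *FLM* probe A_84_P852212, had normalized signals of 94.8 to 115, and the brightest, the *TEM2* probe A_84_P22840, of 12081 to 28953. Probes differ in how well they bind, so the signals of different genes were not compared.

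Between SL and SS, none of the 10 repressor genes was called in the fit without a block. *TEM1* alone was called, as higher in SL, in the fit with the replicate number as a block. Both fits were limma on log2 signals with Benjamini-Hochberg adjustment over 28852 probes, called at an adjusted p under 0.05. Without the block 0 of 10 genes passed, beside 0% of all probes, and 0 of the 23 probes reached an unadjusted p under 0.05, beside 4.11% of all probes. The smallest unadjusted p was 0.149. As the fit without the block called no probe at all, a gene not called in it is not shown to be unchanged. With the block 1 of 23 probes passed, beside 4.5% of all probes, which divided into 1.34% higher and 3.15% lower in SL. At an unadjusted p under 0.05 the block gave 3 of 23 probes, beside 24.1% of all probes. The single call among the repressors was a higher one. In a list of 23 probes, 1 call is no result about the repressors as a set.

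The differences were small in size. With each gene represented by its brightest probe, 5 genes were higher and 5 lower in SL, between -0.36 for *SVP* and 0.46 for *TEM1* on the log2 scale. The median log2 fold change of the 10 genes was -0.00395, beside 0.00927 for all genes. Over all 23 probes, 9 had a positive and 14 a negative value. With the block, the 95% interval lay within 2-fold in either direction for 23 of 23 probes and within 1.5-fold for 21. An offset of 50, added to all signals, draws fold changes of dim probes towards 0. This holds for the dimmest *FLM* and *MAF5* probes, at 94.8 to 115 and 96.8 to 114. An *FT* probe well above background on 0 arrays read 76.9 to 88.8. For such dim probes, narrow intervals do not bound the change in transcript. Apart from *TEM1*, the bounds ran from 0.64-fold to 1.43-fold. Without the block, the bounds of all 23 probes ran from 0.538-fold to 2.42-fold, the highest being that of *TEM1*, and 22 of 23 intervals lay within 2-fold.

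**Figure D1:**
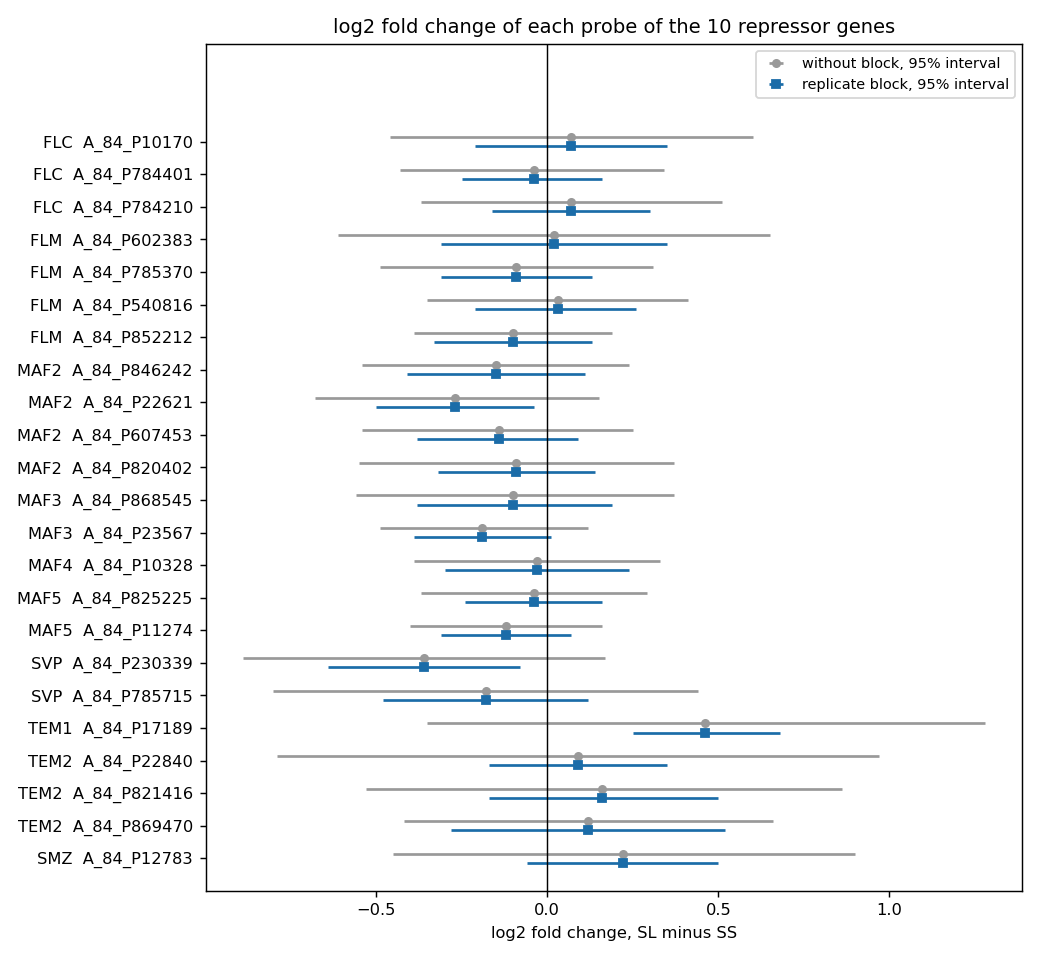
log2 fold change (SL minus SS, x axis) of each of the 23 probes (y axis), with 95% intervals from the limma fit without a block (grey circles) and with the replicate block (blue squares), 3 arrays in each group. All grey intervals cross 0, and among the blue ones those of *TEM1*, 1 *SVP* probe and 1 *MAF2* probe do not.

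For the 10 genes, the range over replicate numbers was wider than the difference between SS and SL. For 10 of 10 genes the range of the 3 means, each of the SS and SL array of one number, exceeded the absolute log2 fold change, with a median range of 0.53 against a median absolute difference of 0.09. A range of 3 means and a difference between group means are unlike measures. The share of all probes with such a range was not computed, so the count is no result about these genes. Replicate 2 gave the lowest mean for 7 of the 10 genes and replicate 3 the highest for 5. No probe separated the groups: 0 of 23 had all SL arrays on one side of all SS arrays, beside 8.76% of all probes (4.03% higher and 4.74% lower in SL). Within pairs of the same number, 1 probe was higher in SL in all 3 pairs, beside 23.1% of all probes, and 5 were lower in all 3, beside 23.6%.

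**Figure D2:**
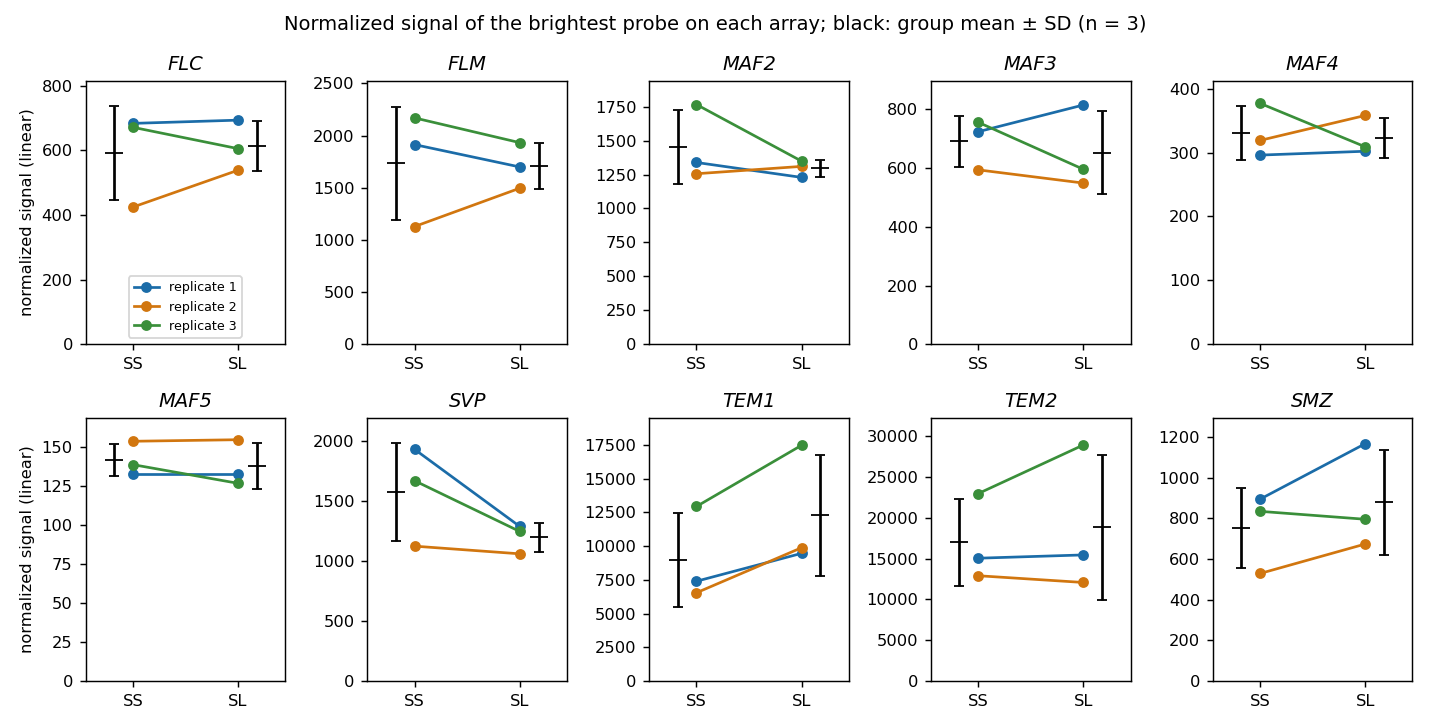
Normalized signal (linear scale, y axis) of the brightest probe of each gene on the 6 arrays. Coloured lines join SS and SL of one replicate number, and black marks give the group mean ± SD (n = 3). The *TEM1* line rises in all 3 pairs and the *SVP* line falls in all 3, while the groups overlap in every panel.

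*FLC*, which gives the clade its name and sets the requirement for cold in winter-annual plants, differed little between SS and SL. Its brightest probe, A_84_P10170, gave normalized signals of 683, 424 and 671 in SS replicates 1 to 3 and of 693, 538 and 605 in SL. SS replicate 2 was the lowest array, SL replicate 1 the highest, and the groups overlapped. The means were 592 ± 146 (SD, n = 3) in SS and 612 ± 77.5 (SD, n = 3) in SL. *FLC* thus had a log2 fold change of 0.07 with an SE of 0.22 (limma, adjusted p = 1), and with the block the SE was 0.11 and the adjusted p 0.732. That fit bounded the difference between 0.867-fold and 1.28-fold. The other *FLC* probes, A_84_P784401 and A_84_P784210, had log2 fold changes of -0.04 and 0.07, and so the probes did not share a direction. Without SS replicate 2, *FLC* was at -0.15.

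*FLM*, whose splice forms follow ambient temperature, had 4 probes. A_84_P602383 gave 1913, 1128 and 2169 in SS and 1699, 1495 and 1932 in SL. Both replicate 2 arrays were the lowest of their group and the groups overlapped. This gave a log2 fold change of 0.02 with an SE of 0.26 (limma, adjusted p = 1), and the block bounded it between 0.809-fold and 1.28-fold with an adjusted p of 0.937. Within pairs, SL was at 0.888, 1.33 and 0.891 of SS, so replicate 2 ran opposite to the others. The remaining probes lay between -0.10 and 0.03 on the log2 scale, with 2 of the 4 *FLM* probes positive and 2 negative, and the sign of *FLM* changed with the processing.

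*MAF2*, *MAF3*, *MAF4* and *MAF5* stand side by side on chromosome 5, with 0 other genes of the RefSeq table among them, and all 9 of their probes had a negative log2 fold change. MAF2 is known to delay flowering after short cold spells, and MAF3 to MAF5 are repressors of the same type. None of the 4 genes passed in either fit. The genes arose by duplication and are alike, so a probe may bind transcripts of more than 1 of them, which was not tested, and the 9 probes are not independent measurements.

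For *MAF2*, A_84_P846242 gave 1339, 1256 and 1766 in SS and 1229, 1310 and 1349 in SL. SS replicate 3 stood above the other 5 arrays, which lay close together. The log2 fold change was -0.15 with an SE of 0.16 (limma, adjusted p = 1), and with the block the adjusted p was 0.444. Of its 4 probes, A_84_P22621 was lower in SL in all 3 pairs, at 0.841, 0.924 and 0.737 of SS. Its log2 fold change was -0.27, with an unadjusted p of 0.0305 and an adjusted p of 0.164 in limma with the block. All 4 *MAF2* probes were negative, from -0.27 to -0.09, none past the threshold. Without SS replicate 3 the log2 fold change of *MAF2* was 0.00, and in the block fit without the arrays of that number it was -0.03.

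*MAF3* gave 724, 594 and 756 in SS and 815, 549 and 596 in SL at A_84_P868545, with a log2 fold change of -0.10 and an SE of 0.19. The highest and the lowest array were both SL arrays. Its second probe, A_84_P23567, was lower in SL in all 3 pairs, with -0.19 and an adjusted p of 0.233 (limma with the block). *MAF4* gave 296, 319 and 377 in SS and 302, 358 and 309 in SL, a log2 fold change of -0.03 with an SE of 0.15. Its groups lay within the same range. *MAF5* gave 133, 154 and 139 in SS and 133, 155 and 127 in SL at A_84_P825225, a log2 fold change of -0.04 with an SE of 0.14. Its other probe, A_84_P11274, gave 105, 114 and 114 in SS and 96.8, 105 and 104 in SL, at 0.924, 0.92 and 0.92 of SS in the 3 pairs. That probe was at -0.12 with an adjusted p of 0.407 (limma with the block), and SL replicate 2 stood level with SS replicate 1 at 105.

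*SVP*, the partner of FLC and FLM on *FT* and *SOC1*, had the lowest value of the 10 genes. A_84_P230339 gave 1933, 1125 and 1671 in SS and 1290, 1061 and 1248 in SL. SL was the lower array in each pair, at 0.667, 0.943 and 0.747 of SS, but SS replicate 2 lay among the SL arrays. The means were 1576 ± 412 (SD, n = 3) in SS and 1200 ± 122 (SD, n = 3) in SL. *SVP* had a log2 fold change of -0.36 with an SE of 0.22 without the block (limma, adjusted p = 1). With the block the SE was 0.12, the interval 0.64-fold to 0.944-fold, the unadjusted p 0.0193 and the adjusted p 0.132, so *SVP* did not pass. The second probe, A_84_P785715, gave 375, 467 and 642 in SS and 322, 509 and 473 in SL. At this probe SL was above SS in the pair of replicate 2, and the log2 fold change was -0.18 with an adjusted p of 0.418 (limma with the block). Without SS replicate 2 the log2 fold change of *SVP* was -0.59 and without SS replicate 1 it was -0.20.

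*TEM1*, the repressor that balances CONSTANS at *FT*, was the only one of the 10 genes called, as higher in SL, and only with the replicate block. Its single probe, A_84_P17189, gave 7394, 6540 and 12942 in SS and 9464, 9881 and 17480 in SL. Both replicate 3 arrays were high, SS replicate 3 lay above SL replicates 1 and 2, and SL replicate 3 was above all SS arrays. SL was at 1.28, 1.51 and 1.35 of SS in the 3 pairs, a mean ratio of 1.38 ± 0.118 (SD, n = 3 pairs). Over the groups this was a log2 fold change of 0.46 with an SE of 0.34 and an adjusted p of 1 without the block, and with an SE of 0.09 and an adjusted p of 0.0469 with it (both limma). The interval with the block was 1.19-fold to 1.60-fold. An exact two-sided permutation test of the 3 SL against the 3 SS arrays gave p = 0.4, where the smallest possible p is 0.1. On slide 1, which held the replicate 1 arrays, *TEM1* was at 0.36, and on slide 2, with the arrays of replicates 2 and 3, at 0.51.

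The call of *TEM1* was close to the threshold. In limma with the block, leaving out the replicate 3 arrays gave an adjusted p of 0.0424, but leaving out those of replicate 1 gave 0.146 and those of replicate 2 gave 0.237. Other background corrections and normalizations with the block gave adjusted p-values of 0.0515 to 0.127, all above 0.05. The log2 fold change stayed positive under every setting, from 0.18 to 0.76, though with all arrays a block or filter cannot move it. Without SS replicate 3 it was 0.76 and without SL replicate 3 it was 0.18. The fall of the 4 mesophyll markers ran opposite to *TEM1* and the higher value of *CA1* did not, and their part in the *TEM1* value was not tested.

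*TEM2*, which overlaps with *TEM1* in function, did not pass. A_84_P22840 gave 15059, 12908 and 22994 in SS and 15461, 12081 and 28953 in SL. As at *TEM1*, both replicate 3 arrays were high. The log2 fold change was 0.09 with an SE of 0.37 (limma, adjusted p = 1), and with the block the interval was 0.89-fold to 1.28-fold and the adjusted p 0.638. At A_84_P821416 SL was at 0.974, 0.985 and 1.47 of SS, and at A_84_P869470 at 0.945, 0.88 and 1.54. SL replicate 3 was the highest array at all 3 probes of *TEM2*, and without it the log2 fold change of *TEM2* was -0.27. Whether *TEM1* and *TEM2* differed in their response was not tested.

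*SMZ*, the AP2-like repressor, gave 895, 529 and 835 in SS and 1168, 674 and 796 in SL at its single probe A_84_P12783. SL was above SS in the pairs of replicates 1 and 2, at 1.31 and 1.27 of SS, and below it in that of replicate 3, at 0.952. The log2 fold change was 0.22 with an SE of 0.28 (limma, adjusted p = 1), and the block gave 0.96-fold to 1.42-fold and an adjusted p of 0.298. *SMZ* was at -0.01 without SS replicate 2 and at 0.39 at most with another array or pair left out. *SMZ* and its close relative *SNZ* may share probe binding, which was not tested.

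The 3 pairs gave the MADS-box probes different signs. Of the 18 probes of *FLC*, *FLM*, *MAF2* to *MAF5* and *SVP*, 13 were lower in SL in the pair of replicate 1, beside 48.1% of all probes. In the pair of replicate 2 it was 6 of 18, beside 49.8%, and in that of replicate 3 it was 18 of 18, beside 50.5%. The median SL/SS ratios of the 18 probes were 0.972, 1.02 and 0.829 in the 3 pairs, where all probes had medians of 1.01, 1.00 and 0.998. The probes, some of 1 gene and some of alike genes, are not replicates. The 5 probes of *TEM1*, *TEM2* and *SMZ* ran otherwise, with 2, 3 and 1 of them lower in SL in the 3 pairs.

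**Figure D3:**
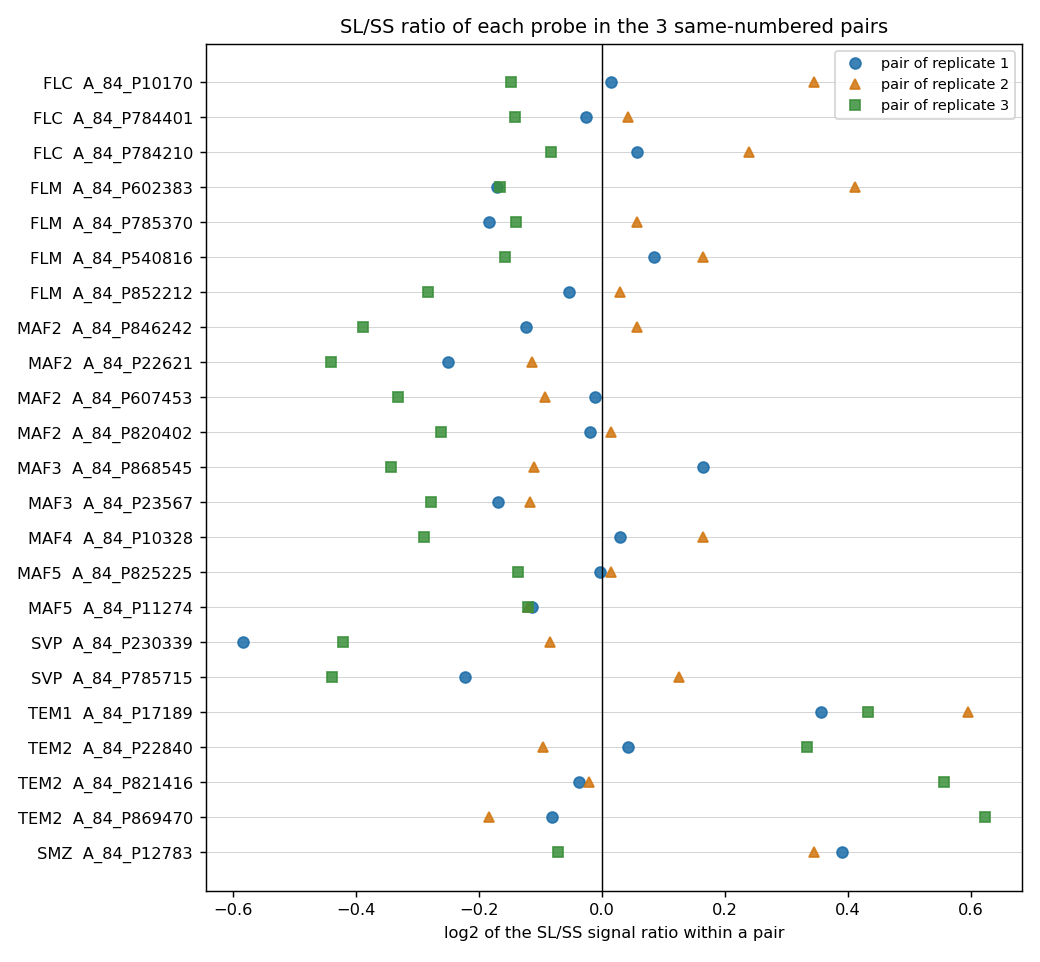
log2 of the SL/SS signal ratio (x axis) of each of the 23 probes (y axis) in the pairs of replicate 1 (circles), replicate 2 (triangles) and replicate 3 (squares). The squares of all 18 MADS-box probes lie left of 0, whereas 12 of the 18 triangles lie right of it.

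Genes that act upstream of *FLC* were examined next. The autonomous pathway lowers *FLC*, the FRIGIDA complex and the PAF1 complex with the histone methyltransferase EFS raise it, and the vernalization genes silence it after cold. None of the genes kept in these lists passed in limma with or without the block, 0 of 7 in the autonomous pathway, 0 of 6 in the FRIGIDA complex, 0 of 6 among PAF1 and EFS, and 0 of 4 in the vernalization list. Of all probes, 0% passed without and 4.5% with the block, so few or no calls in lists of this size are no result about them. Their median log2 fold changes were -0.09, 0.11, 0.02 and 0.04, beside 0.00927 for all genes. The nearest to the threshold was *FVE*, a chromatin-associated member of the autonomous pathway, at -0.37 with an adjusted p of 0.066 (limma with the block). The vernalization gene *VIN3*, which is induced by prolonged cold, was well above background on 0 of 6 arrays.

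Among the other AP2-like and related repressors, 1 of the 5 kept genes rose with the block, beside 1.34% of all probes. This was *AP2*, a floral organ identity gene that also delays flowering. It gave 810, 638 and 664 in SS and 1436, 1026 and 1009 in SL. All SL arrays of *AP2* lay above all SS arrays, as at 4.03% of all probes. *AP2* had a log2 fold change of 0.71, with an SE of 0.19 and an adjusted p of 1 without the block, and an SE of 0.09 and an adjusted p of 0.0188 with it (limma, 1.41-fold to 1.89-fold). The exact two-sided permutation test of the 6 arrays gave the smallest possible p, 0.1. With the arrays of replicate 1 or 2 left out, the adjusted p of *AP2* in the block fit was 0.0966 or 0.155, and it was 0.0815 with normexp signals scaled to the 75th percentile. The other kept genes were *TOE2* at 0.22, *TOE3* at -0.21, *SNZ* at 0.18 and *RAV1* at 0.34, and none of these passed.

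**Figure D4:**
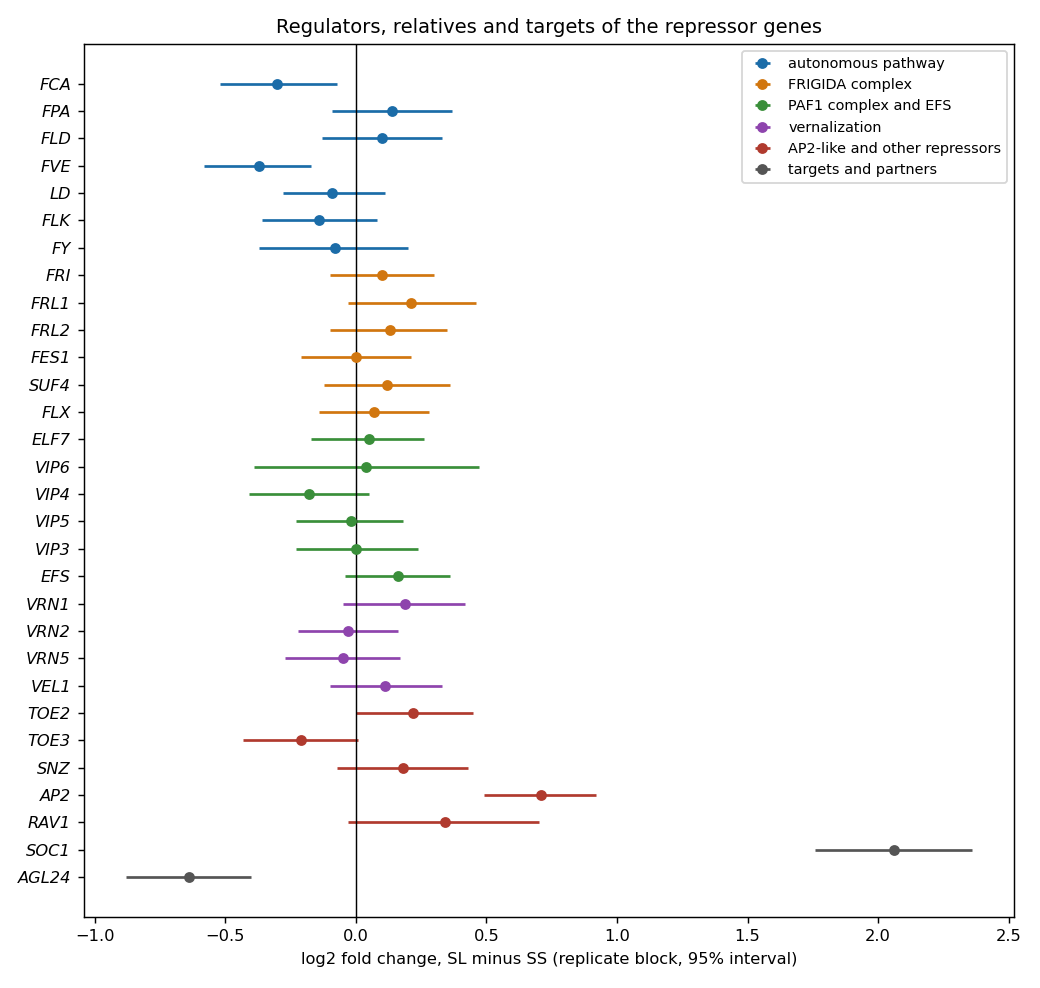
log2 fold change (SL minus SS, x axis) with the 95% interval of the limma fit with the replicate block, for the 30 kept genes (y axis) upstream of, related to or downstream of the repressors, coloured by list. *SOC1* at 2.06 and *AP2* at 0.71 lie to the right and *AGL24* at -0.64 to the left, and the other genes lie between -0.37 and 0.34.

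Of the targets and partners of the repressors, *SOC1* and *AGL24* were kept, and they went in opposite directions. *SOC1*, the floral integrator that FLC and SVP repress, gave 266, 157 and 197 in SS and 1110, 536 and 998 in SL. All SL arrays lay above all SS arrays, as at 4.03% of all probes. The groups overlapped at every one of the 10 repressor genes. As groups fail to overlap at only 8.76% of all probes, this is no result about the repressors. The log2 fold change of *SOC1* was 2.06, with an SE of 0.33 and an adjusted p of 0.504 without the block, and an SE of 0.12 and an adjusted p of 0.00489 with it (limma). Leaving the replicate 2 arrays out of the block fit brought the adjusted p of *SOC1* to 0.108. *AGL24*, a MADS-box gene close to *SVP* that promotes flowering, gave 1243, 739 and 2097 in SS and 847, 515 and 1168 in SL. SL was the lower array in every pair although the groups overlapped. For *AGL24* the log2 fold change was -0.64 with an SE of 0.44 and an adjusted p of 1 without the block, and with an SE of 0.10 and an adjusted p of 0.0286 with it (limma). With the replicate 1 arrays left out, the adjusted p of *AGL24* in the block fit was 0.11, and with the replicate 2 arrays left out it was 0.168. With all arrays, it was 0.106 for normexp at the 75th percentile, 0.0526 for processed intensities and 0.0543 for the series matrix, all above 0.05.

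The florigen genes that these repressors bind could not be followed. *FT* was well above background at 0 of 12 spots and *TSF*, its nearest relative, at 0 of 6. Raw median intensities were 50.5 to 76 for *FT* and 55 to 77.5 for *TSF*, where the medians of the negative control spots were 48 to 66. A difference in *FT* or *TSF* was thus not detectable on these arrays.

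The signals of the repressor genes were also set against each other and against the genes of the lists, over the 6 arrays, as a description. The arrays fall into 3 same-numbered pairs, so such likeness includes what a pair shares. Of 39 candidates, *TEM1* was most like *TEM2*, with a Pearson correlation of 0.866 over 6 arrays, and *SMZ* most like *SNZ*, at 0.961. *SVP* was most like *FVE*, at 0.936, and *FLC* most like *FRI*, at 0.939. *FLM* and *MAF3* were most like *VIP6* and *VIP4*, members of the PAF1 complex, at 0.952 and 0.913. The Pearson correlation was lower for *MAF2* with *AGL24* (0.797), *MAF4* with *SUF4* (0.774) and *MAF5* with *VRN2* (0.814). By ranks (Spearman) the order differed in part, with 0.886 for *MAF4* with *SUF4* and 0.657 for *TEM1* with *TEM2*. Each named gene was the highest of 39 candidates over 6 arrays, so high values come partly from that choice.

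How far the values moved with the processing was followed for each gene. *SVP* was negative and *TEM1* positive under all 24 settings tried, and *MAF2* ranged from -0.26 to 0.00. The other 7 genes changed sign in at least 1 setting, mostly where an array or a pair was left out. With all arrays, a replicate or slide block and a changed filter leave the log2 fold change as it is. Those settings could not change a sign, so the 24 are not separate checks. Another test, the one named in the methods, a two-sided test of the groups on linear signals, had 4.73% of all probes at an unadjusted p under 0.05 and 0 of the 10 genes.

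**Figure D5:**
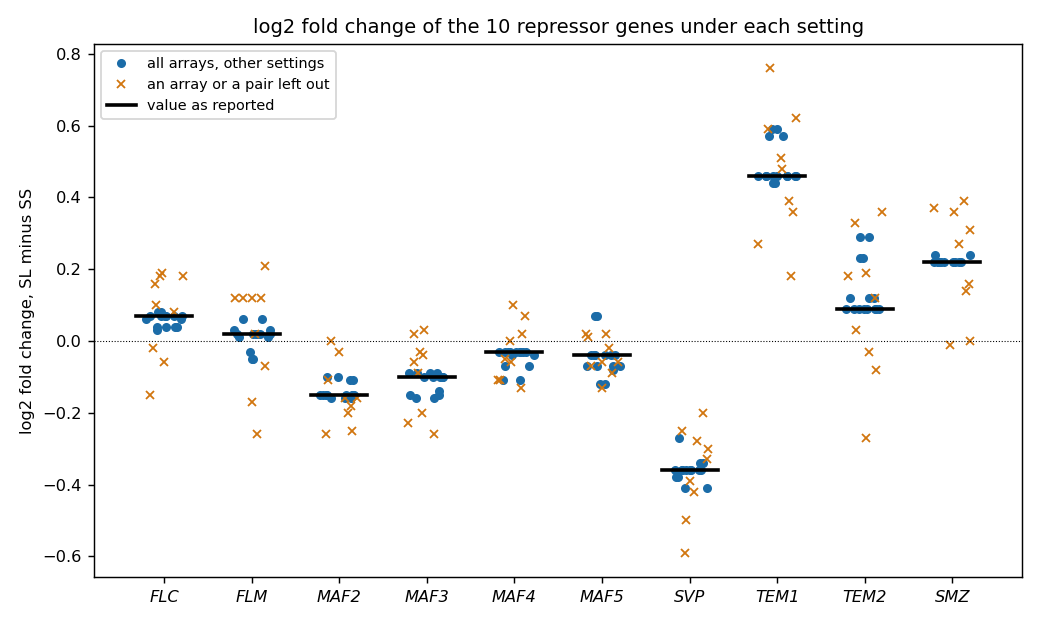
log2 fold change (SL minus SS, y axis) of each gene (x axis) under 24 other settings. All use the brightest probe except the setting that takes the mean over the kept probes of a gene. Blue circles use all 6 arrays, orange crosses leave out an array or a pair, and black bars mark the value as reported. The points of *SVP* lie between -0.59 and -0.20 and those of *TEM1* between 0.18 and 0.76, while those of 7 genes lie on both sides of 0.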

How the data were processed

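The authors hybridized Cy3-labelled RNA, 1 sample per array, and read the scans in Agilent Feature Extraction 11.5.1.1. Of the deposited columns, the median pixel intensity and the local median background of each spot were used. The software's background-subtracted intensity, also deposited as the series matrix, served as an alternative. Gene names came from array identifiers matched to RefSeq records (34348 of 43603 probes). The files name the build TAIR10 and the table TAIR10.1, so no coordinates are given.

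Backgrounds were corrected with normexp (offset 50), arrays were quantile normalized and log2 signals were tested in limma 3.58.1 (R 4.3.3), after control and outlier spots were left out. Probes had to be well above background on every array of either SS or SL (3 arrays each), which kept 28852. P-values were adjusted by Benjamini-Hochberg over these. A gene is represented by its brightest probe, and all probes are given. The offset draws fold changes of dim probes towards 0. The number of arrays limits the precision.

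The reported fit has no block. The replicate number was the alternative and was taken to pair the samples, since deviations of same-numbered arrays from their group means correlated at 0.71, 0.855 and 0.739 across probes, although no label says what a number shares. Different numbers gave -0.58 to -0.161. Deviations cancel within each group, which pushes these values below those of the same number, so they are no separate support for the pairing. Slide 1 held replicate 1 and slide 2 replicates 2 and 3. Named genes were the 10 repressors, genes of the lists that passed in either fit, the main targets, and the most like gene of each repressor. *FVE*, *VIN3*, *TFL1*, the AP2-like genes that did not pass and the single cell type markers were named after their values were seen. The genes and lists were chosen with earlier results of these data known.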

Additional observations from a re-analysis of the deposited data

How the results depend on the processing

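Of 240 alternative values over the 10 genes (24 settings each), 214 kept direction and side of the threshold, 2 passed it (*TEM1* with the replicate block, with and without the pair of replicate 3) and 24 changed sign, none of them past the threshold. Those kept include values from a block or a changed filter with all arrays, which cannot change a sign. The number of repressor genes called was 1 with the replicate block, and 0 to 1 when a replicate was left out. In all other settings it was 0, slide block, filters and the methods' t-test included. The number of probes called was 1297 with the replicate block, and 0 to 2609 with a replicate left out (0 when it was replicate 2, 51 for replicate 1 and 2609 for replicate 3, in the block fit). With the block it was 47 for normexp scaled to the 75th percentile, 1091 for quantile normalization by slide, 563 for processed intensities, 1369 with an offset of 0 and 685 for the series matrix, both of the last added after seeing the data. Without the block it was 0 in every setting run, the t-test included, with 1185 probes at an unadjusted p under 0.05 in limma and 1365 in the t-test. The share of lower among called probes was 70.2% with the block, 53.2% when replicate 3 and 88.2% when replicate 1 was left out of it, and 70.6% to 78.7% under the other block settings with all arrays.

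With all arrays, *FLM* turned to -0.05 with the series matrix, without and with the block, and to -0.03 as the mean over its probes. *MAF5* turned to 0.07 when normexp signals were scaled to the 75th percentile, in either fit. With an array or pair left out, values ranged from -0.15 to 0.19 for *FLC*, -0.26 to 0.21 for *FLM*, -0.26 to 0.00 for *MAF2*, -0.26 to 0.03 for *MAF3*, -0.13 to 0.10 for *MAF4*, -0.13 to 0.02 for *MAF5*, -0.27 to 0.36 for *TEM2* and -0.01 to 0.39 for *SMZ*. Within these ranges, the block fit without a replicate gave -0.06 at the lowest for *FLC*, -0.17 for *FLM* and 0.01 at the highest for *MAF5*, and *MAF4* was at -0.11 without SS replicate 1. The cause was not tested. Scaling to the 75th percentile moved the median of all probes to 0.0809. The replicate block changed no other call among the repressor genes. Normexp on the mean signal was not run, as no mean signal was used here.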

Other observations

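*TFL1*, a repressor of flowering related to *FT*, was well above background only on the 2 arrays of replicate 1, with normalized signals of 130 in SS and 382 in SL. On the other 4 arrays its signal was 78.9 to 85.3. *TFL1* was not kept for the fit.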
